A study of Mus musculus with 12 samples.

Results

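The genes T, Eomes, Gata4, Gata6, Sox17 and Pax6 encode transcription factors that direct cells into the germ layers, and their histone marks were read here from peak lists of mouse embryonic stem cells. Each gene was taken as a fixed GRCm39 window, and a peak belonged to a gene when it overlapped that window. The windows were 17:8640000-8675000 for T, 9:118290000-118330000 for Eomes, 14:63420000-63520000 for Gata4, 18:11035000-11095000 for Gata6, 1:4545000-4585000 for Sox17 and 2:105480000-105540000 for Pax6. The 6 windows held 56 of the 332592 peaks on the assembled chromosomes in the 12 lists, of which 42 were H3K4me3, 14 were H3K27ac and 0 were H3K9me3. All cells were of the E14TG2a line, cultured with serum, LIF, the MEK inhibitor PD0325901 and the GSK3 inhibitor CHIR99021. One genotype was wild type (WT), and the other carried the allele Alkbh5 del-cIDR, a name the labels do not spell out, in the gene of an enzyme that removes a methyl mark from RNA. CUT&Tag was used for H3K4me3 and for H3K27ac, and CUT&RUN for H3K9me3 (both release the DNA around a bound antibody), with 2 libraries per mark and genotype. Neither separate cultures for the replicates nor the number of clones behind del-cIDR is given in the labels, so a p-value here measures only how these libraries scatter, a scatter that may be technical.

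H3K4me3 lies at the starts of active genes and at CpG-rich starts that are silent but can be switched on, H3K27ac marks active promoters and enhancers, and H3K9me3 marks heterochromatin. In stem cells the starts of many developmental regulators are known to carry H3K4me3 together with the repressive mark H3K27me3, the state called bivalent or poised. Sox17 (an HMG-box factor) and Gata4 and Gata6 (zinc-finger factors) drive endoderm, and the GATA pair also acts in heart. T (Brachyury) and Eomes are T-box factors of the primitive streak, which forms mesoderm and endoderm. Pax6, a paired-box and homeodomain factor, acts in eye and neural ectoderm. H3K27me3 was not analysed here, so only the H3K4me3, H3K27ac and H3K9me3 side of the word poised can be read from these lists.

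The bases before the annotated starts show how CpG-rich these promoters are, which is the feature that H3K4me3 is known to follow. RefSeq promoter sequences were matched by symbol for 3 of the 6 genes, T, Eomes and Pax6, leaving Gata4, Gata6 and Sox17. The 250 bases before the start are printed 5′ to 3′, all from the plus strand of GRCm38.p6, with each CpG in capitals. They lie at chr17:8434173-8434422 for T, chr9:118477939-118478188 for Eomes, and chr2:105668646-105668895 and chr2:105682213-105682462 for the 2 starts of Pax6. This build is not that of the peaks, so these positions were not set against them.
T: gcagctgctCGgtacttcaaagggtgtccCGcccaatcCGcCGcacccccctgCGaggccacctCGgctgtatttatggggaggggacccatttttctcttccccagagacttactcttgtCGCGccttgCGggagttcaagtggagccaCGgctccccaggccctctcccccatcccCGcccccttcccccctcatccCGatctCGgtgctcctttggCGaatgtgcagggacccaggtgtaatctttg
Eomes: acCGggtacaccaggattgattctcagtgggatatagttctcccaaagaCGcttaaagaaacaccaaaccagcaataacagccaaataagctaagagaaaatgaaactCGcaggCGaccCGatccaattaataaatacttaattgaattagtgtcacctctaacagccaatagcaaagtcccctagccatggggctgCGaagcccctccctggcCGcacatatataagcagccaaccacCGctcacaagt
Pax6, upstream start: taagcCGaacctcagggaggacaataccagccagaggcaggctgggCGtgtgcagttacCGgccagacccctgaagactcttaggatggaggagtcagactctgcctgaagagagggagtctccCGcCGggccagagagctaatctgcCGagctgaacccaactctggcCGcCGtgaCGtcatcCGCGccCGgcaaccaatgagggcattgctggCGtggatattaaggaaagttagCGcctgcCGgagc
Pax6, downstream start: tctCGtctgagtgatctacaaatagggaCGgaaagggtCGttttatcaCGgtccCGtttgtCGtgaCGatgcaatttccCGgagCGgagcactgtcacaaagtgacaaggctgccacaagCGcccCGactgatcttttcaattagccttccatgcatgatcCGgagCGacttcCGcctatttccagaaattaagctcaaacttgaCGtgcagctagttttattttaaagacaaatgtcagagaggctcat
T had 14 CpGs, each Pax6 start 15 and Eomes 8, against a median of 6 over 32851 mouse promoters of the same length. The T promoter thus lay at percentile 71.7 of CpG number, both Pax6 promoters at 73.6 and Eomes at 58.3. GC content was 62.8% at T, 60.8% and 47.6% at the Pax6 starts and 46.4% at Eomes, with a median of 52.4%. The letters TATAA, searched on both strands, occurred before Eomes and in 22.8% of all promoters, and were not among the 250 bases printed for T or for either Pax6 start.

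All 6 windows held H3K4me3 in at least 2 libraries, H3K27ac was found in some libraries of 4 windows, and H3K9me3 was not found in any window in any library. H3K4me3 was in all 6 windows in replicate 1 of each genotype and in 5 in replicate 2, where T was the missing window. Peaks of a mark that shared at least 1 bp between its 4 libraries were joined into regions, lettered a to d along the chromosome where a window had several. The windows held 13 H3K4me3 regions, of which 8 were found in all 4 libraries, 2 in 3, 1 in 2 and 2 in a single library. None was found only in one genotype, meaning a peak in both of its libraries and in none of the other pair. Over the genome 2.08% of the 23623 H3K4me3 regions had that pattern for del-cIDR and 2.84% for WT. The H3K4me3 lists held 19033 to 19881 peaks, the H3K27ac lists 23407 to 33460 and the H3K9me3 lists 21705 to 43785. The lists carry no counts, so the depth behind them is unknown. The stem-cell identity of the cultures was not checked against marker genes, since no gene positions of the GRCm39 build were used.

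**Figure D1:**
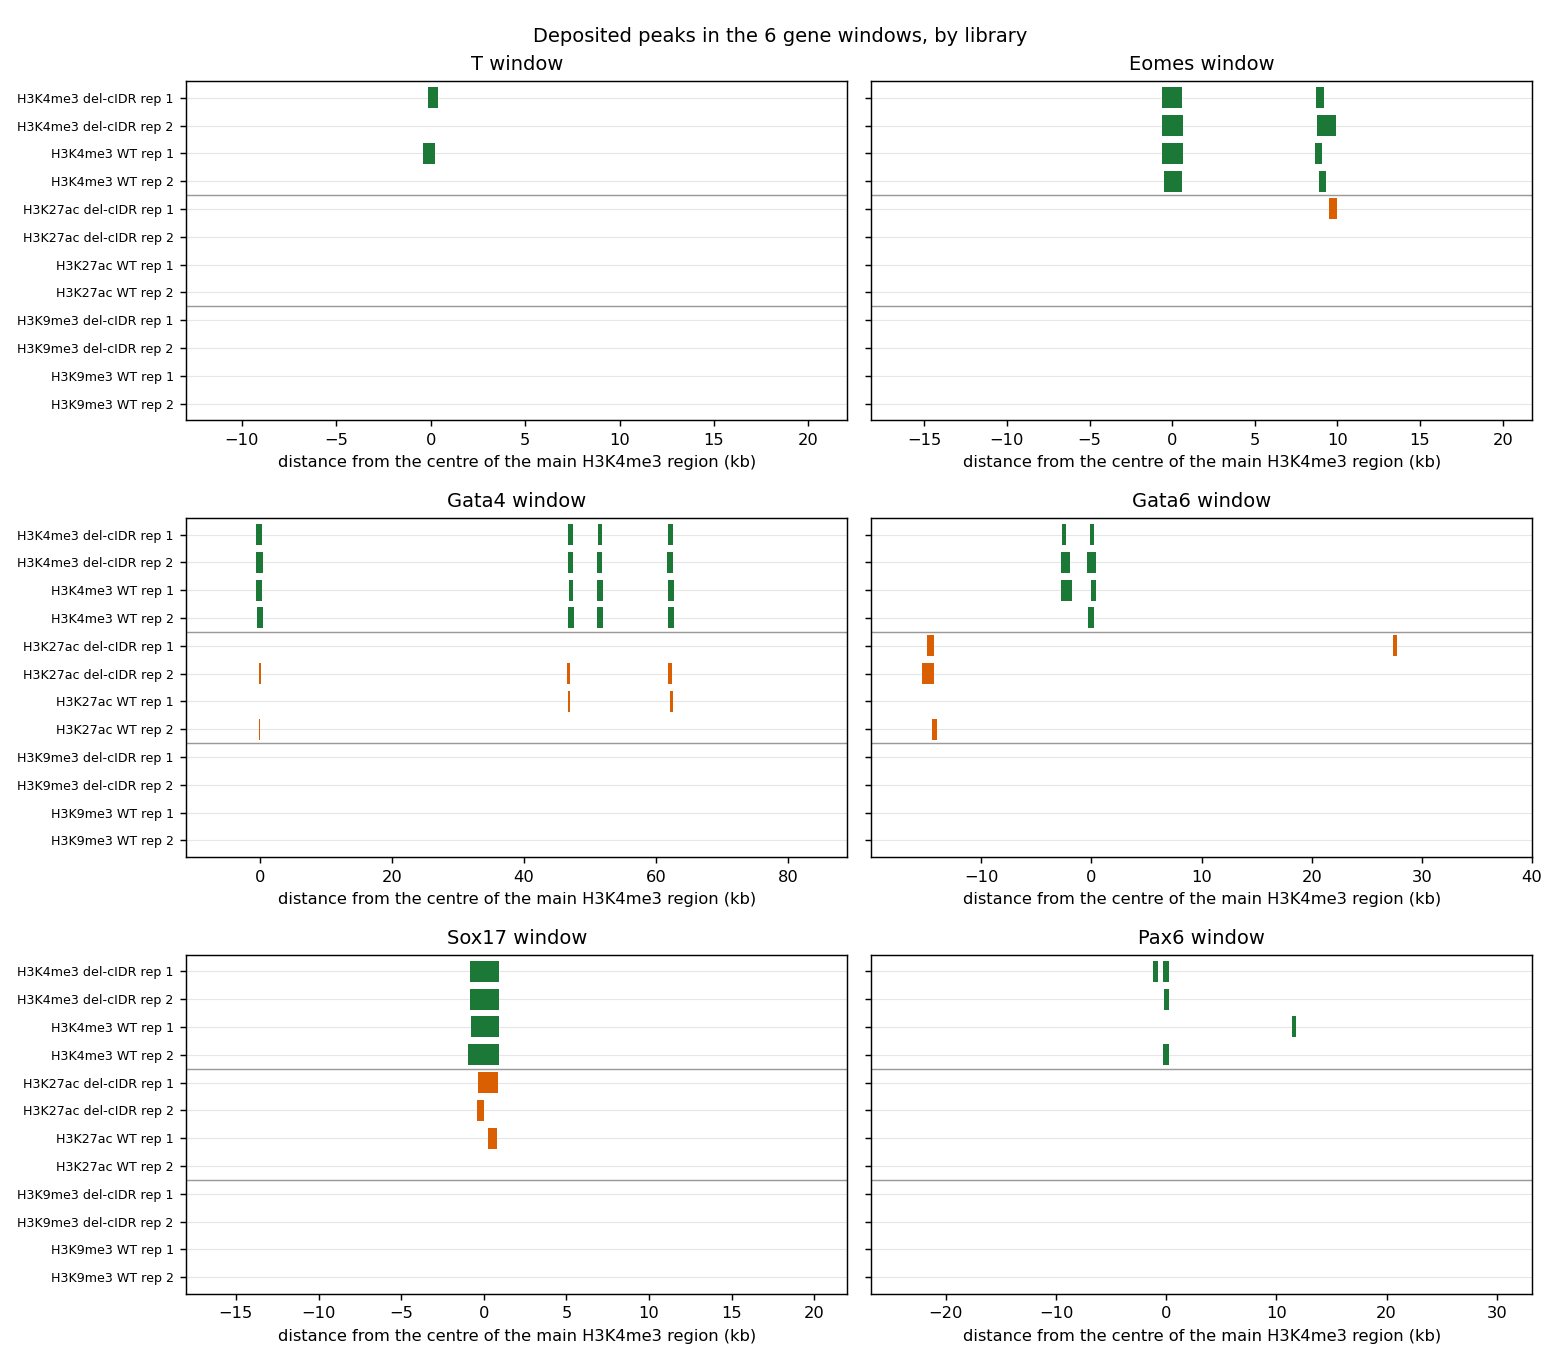
Peaks of each library (rows, with green for H3K4me3 and orange for H3K27ac) in the 6 windows, plotted as distance in kb from the centre of the longest H3K4me3 region found in the most libraries. Sox17 has 1 broad block in all 4 H3K4me3 libraries, T a peak in replicate 1 of each genotype only, and the H3K9me3 rows are empty.

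Sox17 carried the widest H3K4me3 peak of the 6 windows and the one most alike between libraries. The peak was 1746 bp in both del-cIDR libraries, 1744 bp in WT replicate 1 and 1847 bp in WT replicate 2, at 1:4562068-4563952 over the 4 libraries. All 4 libraries therefore held nearly the same block, and the genotypes overlapped (mean 1746 ± 0 bp for del-cIDR against 1795.5 ± 72.8 bp for WT, SD, n = 2 each, p = 1 by exact permutation). Its summits fell within 46 bp of each other, between 4563355 and 4563401. In its own list the peak lay between percentiles 91.2 and 93.9 of width, but only between percentiles 37.03 and 52.02 of fold, which is the authors' enrichment over the background expected in that library. So Sox17 was a broad peak of middling height. The fold itself was 7.51 and 7.99 in the del-cIDR libraries and 8.87 and 8.70 in the WT libraries.

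H3K27ac at Sox17 was present in 3 libraries and covered less of the block. The peak was 1186 bp in del-cIDR replicate 1, 380 bp in del-cIDR replicate 2 and 571 bp in WT replicate 1, and WT replicate 2 had none. All 3 lay wholly inside the H3K4me3 region. The del-cIDR replicate 2 peak (4562612-4562991) and the WT replicate 1 peak (4563246-4563816) did not touch each other, and both lay within reach of the longer peak of del-cIDR replicate 1 (4562658-4563843). In that longest peak the H3K27ac summit was 43 bp from the median H3K4me3 summit, against 435 bp and 425 bp in the other two. Their −log10 q values were 5.09, 4.58 and 3.17, and their folds stood at percentiles 50.9, 46.04 and 41.1 of their lists. With WT replicate 1 left out the whole region counted as found only in del-cIDR, by construction, since WT replicate 2 had no peak. With del-cIDR replicate 1 left out only the 380-bp piece did, while WT replicate 1 kept its own peak in the same H3K4me3 block.

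The Gata4 window held 4 H3K4me3 regions, each found in all 4 libraries, more than any other window. Region a (14:63430630-63431592) was 799 and 963 bp in del-cIDR and 836 and 785 bp in WT. Region b (63477762-63478593) was 783 and 772 bp in del-cIDR and 639 and 775 bp in WT. Region c (63482126-63483078) was 594 and 712 bp in del-cIDR and 835 and 953 bp in WT. Only at region c, of these 3, did the genotypes not overlap, with the shorter peaks in del-cIDR. Region d (63492775-63493854) was 728 and 842 bp in del-cIDR and 868 and 899 bp in WT, again without overlap and shorter in del-cIDR. All 16 of these peaks were narrower than the median peak of their list, which was 968 to 988 bp. In the GRCm38.p6 gene table Gata4 is 72799 bp long, its window is 100001 bp, and the next protein-coding gene before it is Neil2, a DNA repair enzyme gene. The window is thus longer than the gene, and some of the 4 regions may belong to a neighbour.

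Weak H3K27ac peaks lay on 3 of the 4 Gata4 regions, in 2 libraries each and always in 1 library per genotype. At region a they were 318 bp in del-cIDR replicate 2 and 277 bp in WT replicate 2. At region b they were 376 bp in del-cIDR replicate 2 and 330 bp in WT replicate 1, and at region d 610 bp and 442 bp in the same 2 libraries. None was found at region c, and del-cIDR replicate 1 had no H3K27ac peak in the window at all. The −log10 q of these 6 peaks was 2.59 to 3.21, and each had a fold below the median of its list (percentiles 24.9 to 44.2). The nearest H3K27ac peak outside the window lay 4.03 to 4.32 kb before it in all 4 libraries, and with the window widened by 10000 bp del-cIDR replicate 1 had H3K27ac there too.

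Gata6, the close relative of Gata4, had short and weak H3K4me3 peaks. Region b (18:11054568-11055411) was found in all 4 libraries, with 375 and 844 bp in del-cIDR and 467 and 493 bp in WT. Region a (18:11052247-11053189) was 333 and 766 bp in del-cIDR, 910 bp in WT replicate 1 and missing in WT replicate 2. At both regions the widths of the genotypes overlapped. The 7 peaks had a −log10 q of 4.56 to 9.68 and lay between percentiles 6.53 and 22.5 of fold. Gata6 overlaps the gene Gata6os in the gene table, and peaks carry no strand, so the 2 genes cannot be told apart.

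Away from its H3K4me3, the Gata6 window held the H3K27ac peak that ranked highest by fold in its own list among the 14 of the windows. The region 18:11039657-11040964 lay 11.3 kb before the nearest H3K4me3 region, with peaks of 668 bp and 1064 bp in the del-cIDR libraries, 423 bp in WT replicate 2 and none in WT replicate 1. The −log10 q was 5.02 and 9.37 in del-cIDR and 3.34 in WT replicate 2, and the fold stood at percentiles 53.9, 80.01 and 41.3 of the respective lists. Both del-cIDR peaks were thus longer than the WT peak. The del-cIDR lists also held more H3K27ac peaks, 28853 and 33460 against 25804 and 23407 in WT. No genome-wide share of H3K27ac regions longer in both del-cIDR libraries was computed, so the length of this region cannot be set against one. When only peaks with a −log10 q of 5 or more were kept, or with peaks covering at least 50% of the region, this H3K27ac region was the 1 region of the windows found only in del-cIDR. It was not so called with the authors' own threshold, since WT replicate 2 had a peak there. No genome-wide share of such regions was computed for either alternative, so the call cannot be set against one. The del-cIDR lists were fuller over the genome too at a −log10 q of 5 or more. For the other alternative, the 668-bp peak only just covers 50% of the 1308-bp region. A single 300-bp H3K27ac peak at 18:11082415-11082714, in del-cIDR replicate 1, had a −log10 q of 1.47, close to the weakest deposited.

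**Figure D2:**
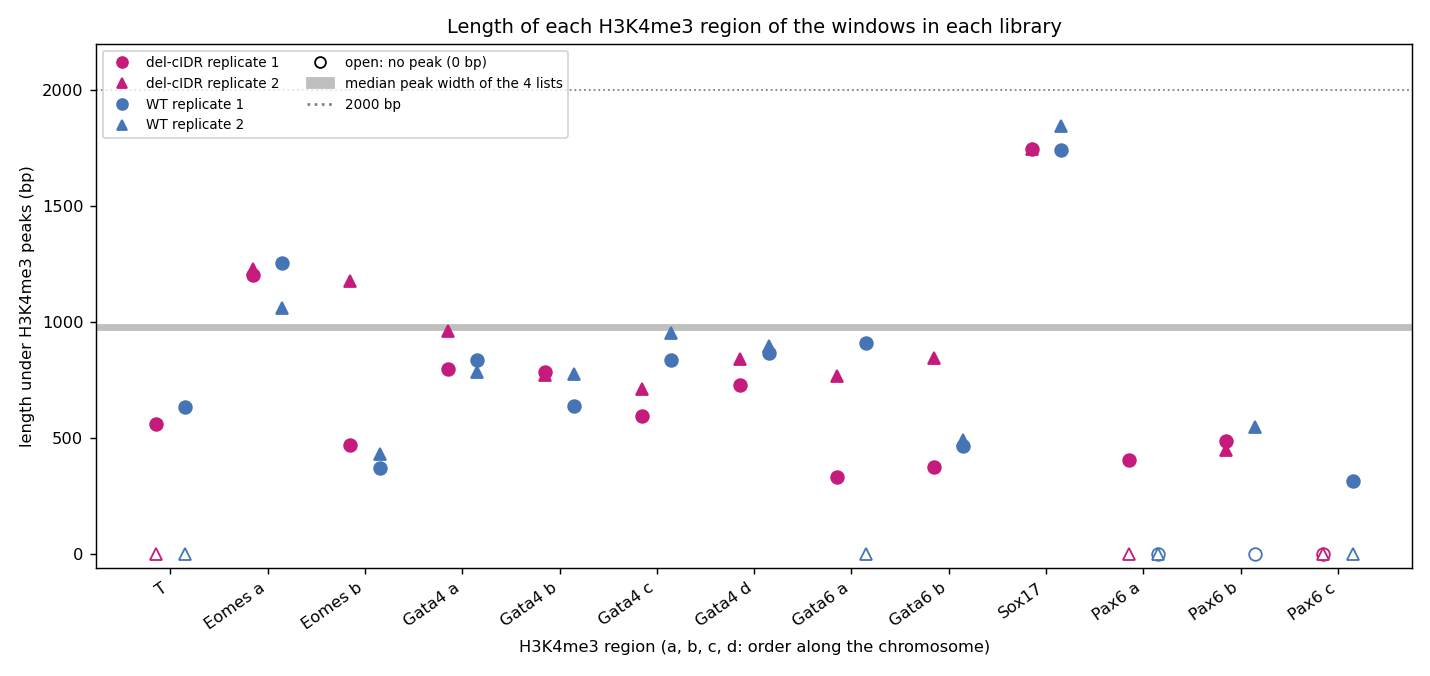
Length in bp under H3K4me3 peaks of each of the 13 regions in each library (colour for genotype, shape for replicate, open symbols at 0 for no peak), with the band of list medians in grey and 2000 bp dotted. Sox17 stands alone at 1744 to 1847 bp, the first Eomes region lies between 1062 and 1256 bp, and all Gata4, Gata6, T and Pax6 points lie below the grey band.

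Eomes had the H3K4me3 peak ranking highest in fold among the 6 windows, with no H3K27ac on it in any library. Region a (9:118307591-118308846) was 1204 and 1227 bp in del-cIDR and 1256 and 1062 bp in WT, so the genotypes overlapped. Its fold was 11.4 and 10.3 in del-cIDR and 10.2 and 11.3 in WT, between percentiles 64.1 and 73.9 of the lists, and its −log10 q was 51.5 to 84.0. Eomes a was therefore above the median in both width and height in all 4 libraries, the only region of the windows to be so.

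A second Eomes region (b, 9:118316887-118318139) was among the weakest H3K4me3 sites found in all 4 libraries. It was 468 and 1179 bp in del-cIDR and 370 and 432 bp in WT, and its −log10 q was 1.84 and 2.18 in del-cIDR and 2.64 and 7.32 in WT. Longer in both del-cIDR libraries, the region was also lower in fold there. One H3K27ac peak of 477 bp, in del-cIDR replicate 1 alone, overlapped only the H3K4me3 peak of del-cIDR replicate 2, the longest of the 4, and had a −log10 q of 5.52 and a fold at percentile 64.7. In the gene table Gm33408 overlaps Eomes, and a peak on both would not separate them.

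T had the least H3K4me3 in terms of libraries. A peak of 562 bp in del-cIDR replicate 1 (17:8652790-8653351) and one of 633 bp in WT replicate 1 (17:8652536-8653168) overlapped, and neither replicate 2 library had a peak in the window. The peak was therefore found in 1 library of each genotype. The 2 peaks had a −log10 q of 4.82 and 5.38 and lay at percentiles 15.9 and 19.5 of fold. No H3K27ac was found in the window. The closest H3K27ac peak outside ended 11.8 kb before it, at the same base in all 4 libraries.

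Pax6 had only short H3K4me3 peaks and no region found in all 4 libraries. Region b (2:105506516-105507063) measured 489 and 448 bp in the del-cIDR libraries and 548 bp in WT replicate 2, and was missing in WT replicate 1. Region a (105505593-105505997, 405 bp) was found in del-cIDR replicate 1 only, and region c (105518230-105518544, 315 bp) in WT replicate 1 only, so every library had a peak in the window but no place had one in all 4. The 5 peaks had a −log10 q of 2.78 to 8.42 and fold percentiles of 5.85 to 27.02. No H3K27ac peak lay in the window, and the nearest was 37.3 to 55.2 kb away. Pax6 overlaps Pax6os1 and Elp4 in the gene table, so a peak in the window need not belong to Pax6 itself.

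Set per length of window, H3K4me3 covered 45.0 bp per kb at Eomes and 44.3 at Sox17, means over the 4 libraries, followed by 32.0 at Gata4, 17.4 at Gata6, 9.19 at Pax6 and 8.54 at T. Eomes (37.3 to 60.1 bp per kb) and Sox17 (43.6 to 46.2) overlapped in their ranges over libraries. Gata4 (29.04 to 34.1) lay below both and above Gata6 (8.22 to 26.8) without overlap. The ranges of Gata6, Pax6 (5.25 to 14.9) and T (0 to 18.1) overlapped. The order per kb thus has 3 steps, with the last 3 genes not separated by these libraries. It depends on the window lengths. Undivided, Gata4 had the most in every library, at 2904 to 3412 bp, against 1494 to 2406 bp at Eomes and 1744 to 1847 bp at Sox17.

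Between genotypes, total H3K4me3 length differed beyond the replicate range in a single window, that of Eomes. There it was 1672 and 2406 bp in del-cIDR (2039 ± 519) and 1626 and 1494 bp in WT (1560 ± 93.3, SD, n = 2 each), which gave an exact permutation p of 0.33, two-sided, the smallest that 2 libraries against 2 can give. With lists of equal length the difference fell from 479 to 74.5 bp, and among peaks with a −log10 q of 5 or more, which keep the second region in WT replicate 2 alone, it turned to -159.5 bp. Of all stretches of the length of the Eomes window (40001 bp) with H3K4me3 in all 4 libraries, 18.4% had more in both del-cIDR libraries and 22.7% in both WT libraries, so 1 window in 6 is no result about these genes. The other 5 windows overlapped between genotypes. Gata4 had a mean of 3096.5 ± 272 bp for del-cIDR against 3295 ± 165 bp for WT (SD, n = 2 each), with p = 0.667 by exact permutation. Gata6 had 1159 ± 638 and 935 ± 625 bp (SD, n = 2 each, exact permutation p = 0.667). Pax6 had 671 ± 315 and 431.5 ± 165 bp (SD, n = 2 each, exact permutation p = 0.667). T had 281 ± 397 and 316.5 ± 448 bp (SD, n = 2 each, exact permutation p = 1). The p-values of these 6 comparisons were not adjusted, as none could pass.

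Site by site, among the 16093 H3K4me3 regions found in all 4 libraries, the fold was ranked within each library over those same regions, so that ranks can be set side by side. Sox17 ranked at percentiles 26.98 and 33.1 for del-cIDR and 42.1 and 40.4 for WT, lower in both del-cIDR libraries. Gata4 c ranked at 3.77 and 1.91 in del-cIDR and 7.12 and 11.05 in WT, and was also shorter in both del-cIDR libraries. Eomes b ranked at 1.05 and 1.41 in del-cIDR and 1.76 and 16.7 in WT. In the other direction, Gata4 b ranked at 34.4 and 27.5 in del-cIDR and 21.1 and 22.2 in WT, and Gata6 b at 12.7 and 7.22 against 5.71 and 4.52. Each of these gave the smallest exact permutation p of 0.33. Of the 8 sites in the windows, 1 was longer in both del-cIDR libraries (18.1% of all 16093 sites) and 2 in both WT libraries (21.7%). For rank, 2 were higher in both del-cIDR libraries (19.4%) and 3 in both WT libraries (19.4%). Length and rank were both higher in WT at 1 site, Gata4 c (4.14% of all sites), and both higher in del-cIDR at none (3.70%). Read against these shares, counts of 0 to 3 in 8 are no result about these genes.

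**Figure D3:**
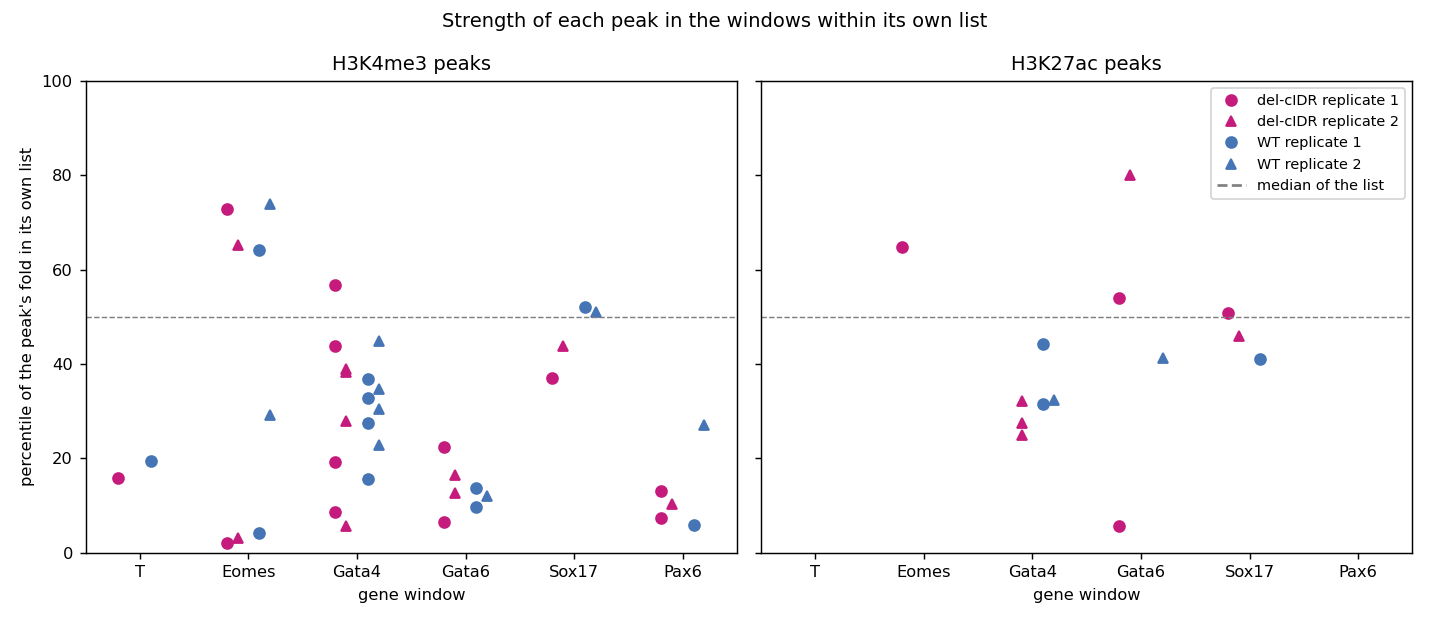
Percentile of each peak's fold in its own list, by window (x axis), for H3K4me3 (left) and H3K27ac (right), with 1 point per peak, colour for genotype and shape for replicate. Of 42 H3K4me3 peaks 35 lie below the list median, those above being at Eomes, Sox17 and Gata4, and of 14 H3K27ac peaks 10 lie below it.

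The 8 H3K4me3 sites found in all 4 libraries, of which 4 lay in the Gata4 window and none at T or Pax6, were mostly modest within the genome. Their median length was 804 bp against 1075 bp for all 16093 sites, and their median rank of fold was 24.5 against 49.5. None of the 8 reached a mean length of 2000 bp, which 804 of all sites did. Sox17 came closest, at percentile 90.8 of length, followed by Eomes a at 60.4 and Gata4 a at 27.2. By rank of fold and with all sites cut into 4 bins of equal number, 5 of the 8 fell in the lowest bin, 2 in the second and 1, Eomes a, in the third.

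Of the 8 sites, 5 had H3K27ac in at least 1 library. No site of the windows had H3K27ac in all 4 libraries, as 41.7% of all sites did. Sox17 had it in 3, Gata4 a, b and d in 2 and Eomes b in 1. The Eomes b overlap rests on the H3K4me3 peak of del-cIDR replicate 2, and without that library 4 of 8 sites had no H3K27ac. The remaining 3 of 8 sites, Eomes a, Gata4 c and Gata6 b, had none in any library. That pattern held for 22.2% of all sites and for 7.59% of the 804 sites of 2000 bp or more. It was more common among weaker sites, with 35.2% of the lowest bin by rank of fold, 28.9% of the second, 17.9% of the third and 6.79% of the highest. The lowest bin held 5 of the windows' 8 sites, and 34.5% of all sites in that bin had H3K27ac in all 4 libraries. Among peaks of both marks with a −log10 q of 5 or more, 6 of 7 sites had no H3K27ac, against 36.3% of the 14790 such sites of the genome. Whether peak strength or list length accounts for the missing calls was not tested.

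**Figure D4:**
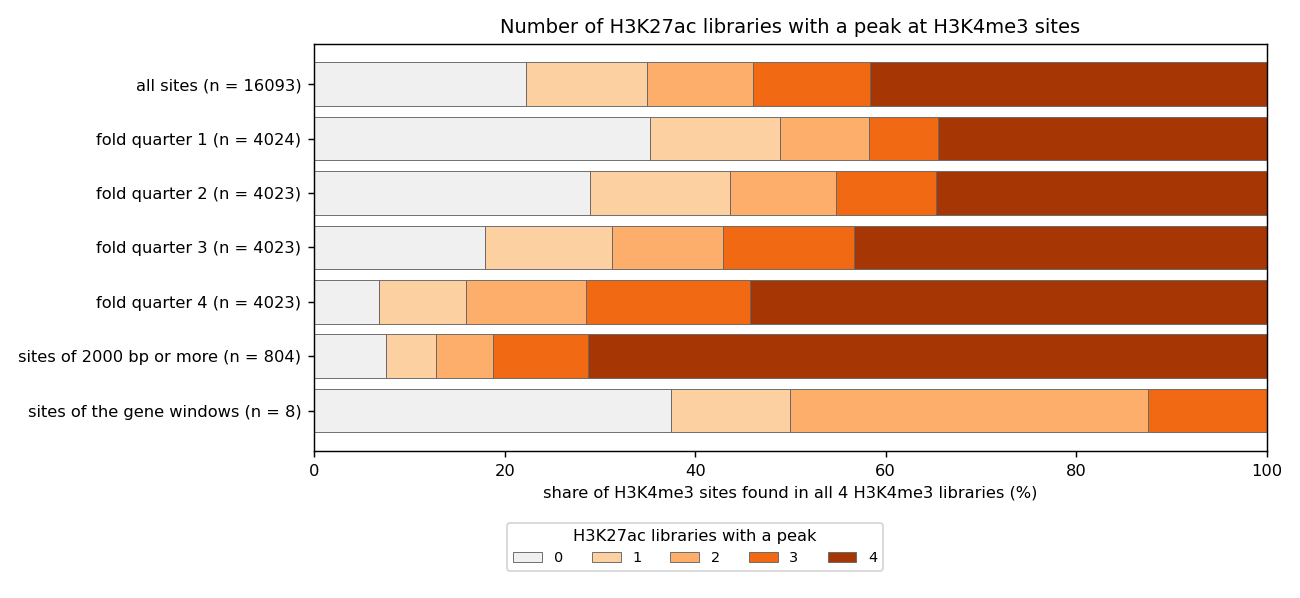
Share of H3K4me3 sites (x axis, percent) with an H3K27ac peak in 0, 1, 2, 3 or 4 libraries, for all 16093 sites, for 4 bins of rank of fold from lowest (1) to highest (4), for sites of 2000 bp or more and for the 8 sites of the gene windows. The bottom bar has no segment for 4 libraries, the longest segment in the bar of all sites at 41.7%.

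By library, H3K27ac was found in 3 windows in each del-cIDR library and in 2 in each WT library, but not in the same windows. Del-cIDR replicate 1 had it at Eomes, Gata6 and Sox17, and del-cIDR replicate 2 at Gata4, Gata6 and Sox17. WT replicate 1 had it at Gata4 and Sox17, and WT replicate 2 at Gata4 and Gata6. No window had H3K27ac in all 4 libraries, and T and Pax6 had it in none. Among stretches of the windows' lengths with H3K4me3 in all 4 libraries, 57.4% (35001 bp) to 70.6% (100001 bp) had H3K27ac in all 4. Among all stretches of those lengths the range was 14.7% to 30.6%. The T window, with H3K4me3 in 2 libraries, belongs only to the latter set. The H3K27ac lists held 28853 and 33460 peaks in del-cIDR and 25804 and 23407 in WT, so the longer lists were those with 3 windows. Over the genome, 77.6% and 82.6% of 40001-bp stretches with H3K4me3 in all 4 libraries had H3K27ac in the del-cIDR lists. The shares in the WT lists were 71.7% and 69.9%. Cut to equal length, the lists gave 3 and 2 windows in del-cIDR and 2 and 2 in WT. Among peaks with a −log10 q of 5 or more, 3 windows remained in del-cIDR replicate 1, 1 in replicate 2 and 0 in either WT library. The del-cIDR lists were fuller at that threshold over the genome too, with H3K27ac in 62.4% and 68.4% of the 12582 stretches of 40001 bp that had H3K4me3 in all 4 libraries, against 51.6% and 49.3% in the WT lists. Of the 7 H3K27ac regions 0 were found in one genotype alone, a pattern that 6.42% (del-cIDR) and 1.83% (WT) of the 50439 H3K27ac regions of the genome had.

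For comparison, the genome was divided into stretches as long as each window. Of the 60001-bp stretches with H3K4me3 in all 4 libraries, as in the Pax6 window, 7.49% had no H3K27ac peak in any library, and of all 60001-bp stretches 55.4%. Pax6 belongs to the first set only through weak peaks at different places, with fold percentiles of 5.85 to 27.02. The stretches were not divided by strength, while H3K4me3 sites without H3K27ac made up 35.2% of the lowest bin of fold and 6.79% of the highest. Of all 35001-bp stretches, the length of the T window, 65.2% had none, and of those with H3K4me3 in all 4 libraries 10.7%. The T window had H3K4me3 in 2 libraries, so it is not a member of that second set.

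H3K9me3 was absent from the lists in all 6 windows in all 4 libraries, and also with each window widened by 10000 bp on both sides. Hence 0 of 8 H3K4me3 sites overlapped it, against 1.62% of all 16093 sites, so an absence at 8 sites is what most sites show. Over whole windows the comparison is wider. Of stretches of the windows' lengths with H3K4me3 in all 4 libraries, 30.6% (35001 bp) to 63.2% (100001 bp) held an H3K9me3 peak in at least 1 library. In WT replicate 1, the shortest H3K9me3 list, the range was 13.3% to 34.4%. T, the window of 35001 bp, had H3K4me3 in 2 libraries only. Of all stretches of that length 42.6% held H3K9me3 in at least 1 library. No H3K9me3 region of the windows could be found only in one genotype, as 4.51% (del-cIDR) and 0.955% (WT) of 61706 regions of the genome were.

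The nearest H3K9me3 peak lay 33.2 to 52.9 kb from the Sox17 window, 78.2 to 78.5 kb from Pax6, 80.7 to 81.4 kb from Gata6, 104 to 219 kb from Eomes, 125 to 181 kb from Gata4 and 237 to 350 kb from T. At Pax6 and Gata6 the 4 libraries agreed to within 1 kb. At Eomes the distances were 113 and 104 kb in del-cIDR and 219 and 183 kb in WT, and at Gata4 they were 125 and 125 kb in del-cIDR and 180 and 181 kb in WT. Both windows lay farther from H3K9me3 in both WT libraries, as did 28.3% of 40001-bp and 27.4% of 100001-bp stretches with H3K4me3 in all 4 libraries and no H3K9me3. The Gata6 window did so too, by less than 1 kb, with 81.1 and 80.7 kb in del-cIDR and 81.4 kb in both WT libraries. No such share was computed for stretches of the Gata6 length. The list of WT replicate 1 was the shortest, at 21705 peaks, and that of WT replicate 2 the longest, at 43785. T was the farthest from H3K9me3 in every library and Sox17 the nearest.

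**Figure D5:**
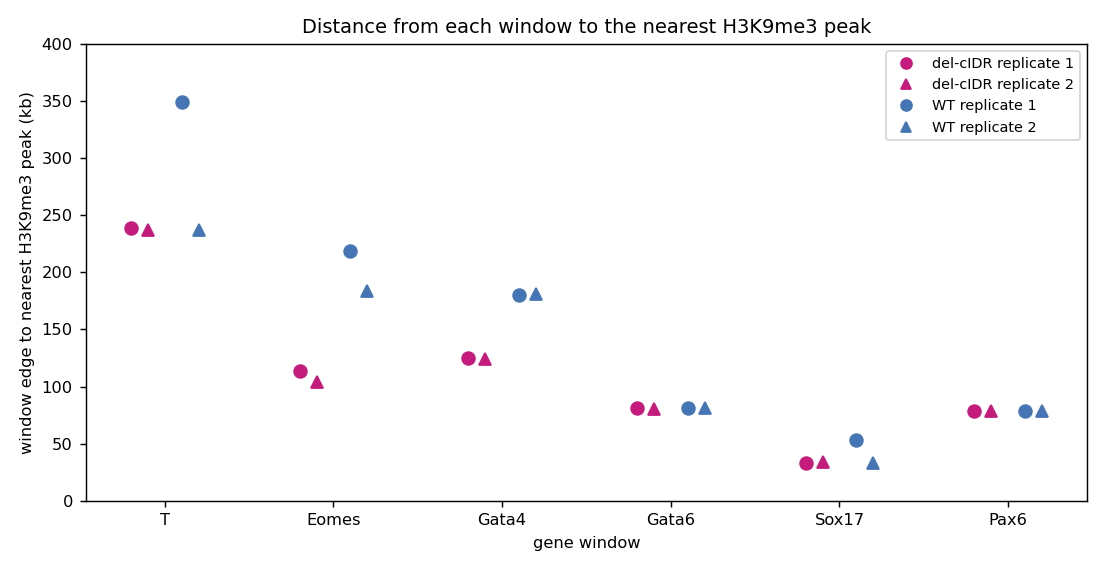
Distance in kb from the edge of each window (x axis) to the nearest H3K9me3 peak in each library, colour for genotype and shape for replicate. No point lies at 0, Sox17 is lowest at 33.2 to 52.9 kb, and at Eomes and Gata4 both WT points lie above both del-cIDR points, as in 28.3% and 27.4% of comparable stretches. At Gata6 they do so by a small margin.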

How the data were processed

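The authors deposited 1 peak list per library. Per the submitters' processing notes, fastp, BWA, SAMtools, Picard, MACS2 and featureCounts were used on GRCm39. Versions, settings and any control library are not given there or in the lists. The deposited lists give each peak a fold enrichment (a ratio), a p-value and a q-value as −log10, and a score. Peaks under the authors' limits, a q of 0.05 in narrow and 0.1 in broad lists by their weakest peaks, are not listed, and no counts allow an interval.

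Peaks on chromosomes 1 to 19, X and Y were read with Python 3.11.15 and pandas 2.3.3, and an overlap meant at least 1 bp. Regions were joined over the 4 libraries of a mark, after the calls were tested on simulated data. Group means were compared by exact two-sided permutation over libraries, without a replicate block. Every peak in the 6 windows was described, as the rule for named genes asked. The members, lists and tests were chosen with earlier results of these data known. Alternatives were a −log10 q of at least 5, lists of equal length, peaks within 1000 bp joined, bases inside the window only, wider windows, overlap minimums, leaving out each library and a replicate block. Planned lists of other germ-layer and marker genes were not used, as the gene table is of GRCm38.p6.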

Additional observations from a re-analysis of the deposited data

How the results depend on the processing

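Of 54 recomputed length differences 47 kept their sign and 7 reversed. Of 84 recomputed counts 64 were equal, 6 changed by at most 1.5 times and 14 by more. No setting gave a p under 0.05, which 2 libraries against 2 cannot reach. Among peaks with a −log10 q of 5 or more the difference in H3K4me3 length (del-cIDR minus WT) went to -159.5 bp at Eomes and -274 bp at Pax6. That setting left H3K27ac in 1 window in del-cIDR replicate 2 and 0 in WT replicate 1 and WT replicate 2, raised the H3K4me3 sites without H3K27ac from 3 to 6, and gave 1 H3K27ac region found only in del-cIDR. Peaks covering at least 50% of a region gave the same 1 region, at Gata6, and no genome-wide share was computed for either setting. With any 1 library left out the length differences ran from -352 to 281 bp at T, 112 to 846 at Eomes, -391 to -6 at Gata4, -227 to 675 at Gata6, -101 to 2 at Sox17 and 16.5 to 462.5 at Pax6. T turned positive without del-cIDR replicate 2 or WT replicate 1, Gata6 negative without del-cIDR replicate 2 or WT replicate 2, and Sox17 positive without WT replicate 2. By construction more regions then qualify as found in a single genotype, with 1 to 2 H3K27ac regions only in del-cIDR, 0 to 1 H3K4me3 regions only in del-cIDR and 0 to 1 only in WT. These were 2 Pax6 regions and Gata6 a for H3K4me3 in del-cIDR, Pax6 c in WT, and Sox17, Eomes and the 2 Gata6 regions for H3K27ac. H3K4me3 sites without H3K27ac numbered 3 to 4. At Pax6 the difference was 397 bp with lists of equal length and 501 bp with peaks within 1000 bp joined.

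With a replicate block the length differences stay the same by construction (479 bp at Eomes, -198.5 at Gata4, 224 at Gata6, 239.5 at Pax6, -49.5 at Sox17 and -35.5 at T), with exact sign-flip p-values of 0.5 at Eomes and Gata4 and 1 at the others, 0.5 being the smallest that 2 pairs give. Nothing in the labels ties libraries of the same number beyond that number. Over regions found in all 4 libraries the deviations of same-numbered libraries correlated at -0.014 in log2 length and 0.0032 in log2 fold for H3K4me3, 0.0043 and 0.0048 for H3K27ac, and 0.0166 and 0.131 for H3K9me3.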

Other observations

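Several peak edges fell on the same base in different libraries. Gata4 a started at 63430630 in 3 of the 4 H3K4me3 libraries, the H3K27ac peaks on it started at 63430948 in both libraries that had one, and those on Gata4 b ended at 63478041 in both. The H3K27ac peak 11.8 kb before the T window ended at one base in all 4 libraries.

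At Gata4 the nearest H3K9me3 peak before the window was 124730 and 124527 bp away in the del-cIDR libraries and 911355 and 506787 bp away in WT replicates 1 and 2. After the window the genotypes overlapped, with 180684 and 180566 bp in del-cIDR and 180427 and 180792 bp in WT. No genome-wide share was computed for the distance before a window alone, so the difference there cannot be set against one. WT replicate 1 had the shortest H3K9me3 list of the 4, with 21705 peaks, and WT replicate 2 the longest, with 43785.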
